A study of Mus musculus with 12 samples.

Results

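The miR-23/27/24 clusters are a pair of paralogous miRNA loci of the mouse genome, and their 3p arms were followed here across hearts of diabetic and non-diabetic mice with and without the monoamine oxidase inhibitor pargyline. The members were chosen by name and were mmu-miR-23a-3p, mmu-miR-23b-3p, mmu-miR-24-3p, mmu-miR-27a-3p and mmu-miR-27b-3p (the mouse prefix is left off below), which are 5 of the 1881 miRNAs on the array. All 5 were detected on all 12 arrays, and they were therefore among the 128 miRNAs that were tested.

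Total RNA of heart muscle came from male C57BL6/J mice aged 5 months, with 3 mice in each of 4 groups and 1 array per mouse. Control mice (C) had received neither agent, and control mice with pargyline (C + P) had 50 mg/kg of it daily over 12 weeks. Diabetic mice (D) had been made diabetic with streptozotocin, a toxin of pancreatic beta cells, at 50 mg/kg on each of 5 days from an age of 6 to 7 weeks, and a blood glucose of 17 mM or more defined diabetes. Diabetic mice with pargyline (D + P) had both agents. This is a chemical model of type 1 diabetes in a single inbred strain and in males, so it says nothing about females or about insulin resistance. Both groups without pargyline were hybridized on slide 1 and both groups with it on slide 2, and a direct comparison across pargyline is also one across slides, so that the 2 cannot be told apart. On both slides the non-diabetic hearts were in row 1 and the diabetic hearts in row 2, so row and diabetes cannot be told apart either.

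The C arrays were the dimmest. They detected 144 to 163 miRNAs. Detection reached 165 to 203 miRNAs on D arrays, 187 to 218 on D + P arrays and 214 to 253 on C + P arrays. The summed signal ran from 27107 to 35028 on C arrays, from 39661 to 58631 on D + P arrays, from 48104 to 61254 on D arrays and from 57895 to 89040 on C + P arrays. Before normalization the median miRNA was 0.77 higher in D than in C on the log2 scale, 1.15 higher in C + P than in C and 0.62 higher in D + P than in C. Its change was -0.12 in D + P against D and -0.41 in D + P against C + P. The normalized changes below are relative to these shifts. Of the cardiomyocyte miRNAs, 5 of 6 were detected on all arrays, miR-1a-3p at a signal of 615 to 6912, which is what heart muscle should give. The cardiomyocyte miRNA miR-208b-3p, which is known from the fetal and stressed heart, was detected on none.

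Each cluster holds a miR-23, a miR-27 and a miR-24 hairpin that are transcribed together and then cut apart by the miRNA processing enzymes. A mature miRNA finds its target mRNAs mainly through its seed, bases 2 to 8 from the 5′ end, so paralogs with the same seed can act on the same mRNAs. In the heart, miR-23a is known as a miRNA that favours cardiomyocyte hypertrophy, miR-24 has been tied to survival of cardiomyocytes and endothelial cells, and the miR-23 and miR-27 families are known from angiogenesis, with miR-27 also acting in lipid metabolism.

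The mature sequences are shown since they decide what the array can tell apart. Of the 5 members, 4 matched a RefSeq entry (GRCm38.p6), and the seeds are in capitals.
miR-23a-3p: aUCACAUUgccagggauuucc
miR-27a-3p: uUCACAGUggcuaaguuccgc
miR-27b-3p: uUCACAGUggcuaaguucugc
miR-24-3p: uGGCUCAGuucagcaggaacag
MiR-27a-3p and miR-27b-3p share the seed UCACAGU and were identical at 20 of 21 bases, with the single substitution C19U when positions are counted from the 5′ end of miR-27a-3p. They are close paralogs, as are miR-23a and miR-23b, so some of the signal of one may come from the other, and the size of that share was not tested. The mature miR-24-3p is the same from both clusters, and its value is therefore the sum of the 2 loci.

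Cluster a lies on the plus strand of chromosome 8 and holds Mir23a, Mir27a and Mir24-2, in that order, within 404 bases. Its mature 3p arms are at chr8:84208563-84208583 for miR-23a-3p, chr8:84208727-84208747 for miR-27a-3p and chr8:84208875-84208896 for miR-24-3p. No protein-coding gene spanned this cluster in the annotation, and the next gene to its right was Zswim4, 2021 bases away. Cluster b lies on the plus strand of chromosome 13 and holds Mir23b, Mir27b and Mir24-1 within 792 bases, inside the span of Aopep, which encodes an aminopeptidase. There, miR-27b-3p is at chr13:63300760-63300780 and miR-24-3p at chr13:63301251-63301272.

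Levels are given first as scanner signals, in the arbitrary brightness units of the array and before any normalization, with a scanner error of 7.08 to 8.18% of the signal over the 5 members. For miR-27a-3p the signals were 86.1, 46.9 and 51.0 in C, 231.8, 209.3 and 160.6 in D, 160.0, 183.9 and 318.3 in C + P and 93.8, 154.1 and 199.1 in D + P. All D, C + P and D + P arrays lay above the C arrays, the lowest of them D + P replicate 1. MiR-27b-3p, which differs from miR-27a-3p by that single base, gave 69.3, 60.3 and 65.0 in C, 131.5, 124.2 and 116.2 in D, 152.6, 141.1 and 249.9 in C + P and 96.9, 137.5 and 167.2 in D + P. The C arrays of miR-27b-3p were again the lowest, but the D arrays were closer to them than for miR-27a-3p.

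The miR-23 pair also had its lowest signals in C. MiR-23a-3p gave 194.8, 145.4 and 169.9 in C, 579.9, 505.5 and 362.8 in D, 445.7, 511.2 and 847.0 in C + P and 166.7, 403.5 and 513.0 in D + P. Replicate 1 of D + P stood apart from its group and fell within the C arrays. MiR-23b-3p gave 96.0, 69.0 and 77.8 in C, 277.7, 238.2 and 188.6 in D, 229.0, 250.3 and 414.8 in C + P and 93.0, 185.5 and 248.1 in D + P, and the same D + P array was low. MiR-24-3p ran from 163.4 to 239.2 in C, 365.1 to 498.1 in D, 395.3 to 762.1 in C + P and 286.6 to 451.6 in D + P, without any D + P array inside the range of C.

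After cyclic loess normalization, which removes the difference in brightness between arrays, the members had unlike patterns. Their changes already differed in size on the scanner scale. There, the log2 ratio of miR-27b-3p over miR-27a-3p had a difference of -0.81 in D against C. On the normalized log2 scale, miR-27a-3p was at 6.95, 6.28 and 6.18 in C and at 7.48, 7.51 and 7.39 in D. The C + P arrays were at 7.20, 7.19 and 7.31 and the D + P arrays at 7.11, 7.00 and 7.24. The C arrays were all below the others, with C replicate 1 far above its 2 group mates. MiR-23b-3p was at 7.13, 6.86 and 6.80 in C, 7.71, 7.67 and 7.61 in D, 7.71, 7.64 and 7.70 in C + P and 7.14, 7.28 and 7.55 in D + P. MiR-23a-3p was at 8.21, 8.05 and 8.02 in C, 8.70, 8.67 and 8.53 in D, 8.60, 8.63 and 8.67 in C + P and 8.10, 8.51 and 8.61 in D + P. For both, D and C + P formed a tight upper level above C, and D + P spread between the levels.

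MiR-24-3p and miR-27b-3p had another pattern. MiR-24-3p was at 8.51, 8.22 and 8.08 in C, 8.47, 8.56 and 8.54 in D, 8.42, 8.45 and 8.52 in C + P and 8.89, 8.47 and 8.43 in D + P, so its groups overlapped in C, D, C + P and D + P alike, and its highest value was D + P replicate 1. MiR-27b-3p was at 6.62, 6.63 and 6.52 in C, 6.69, 6.78 and 6.93 in D, 7.13, 6.80 and 6.95 in C + P and 7.12, 6.84 and 7.00 in D + P. Its C arrays were the lowest, and the other groups overlapped.

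**Figure D1:**
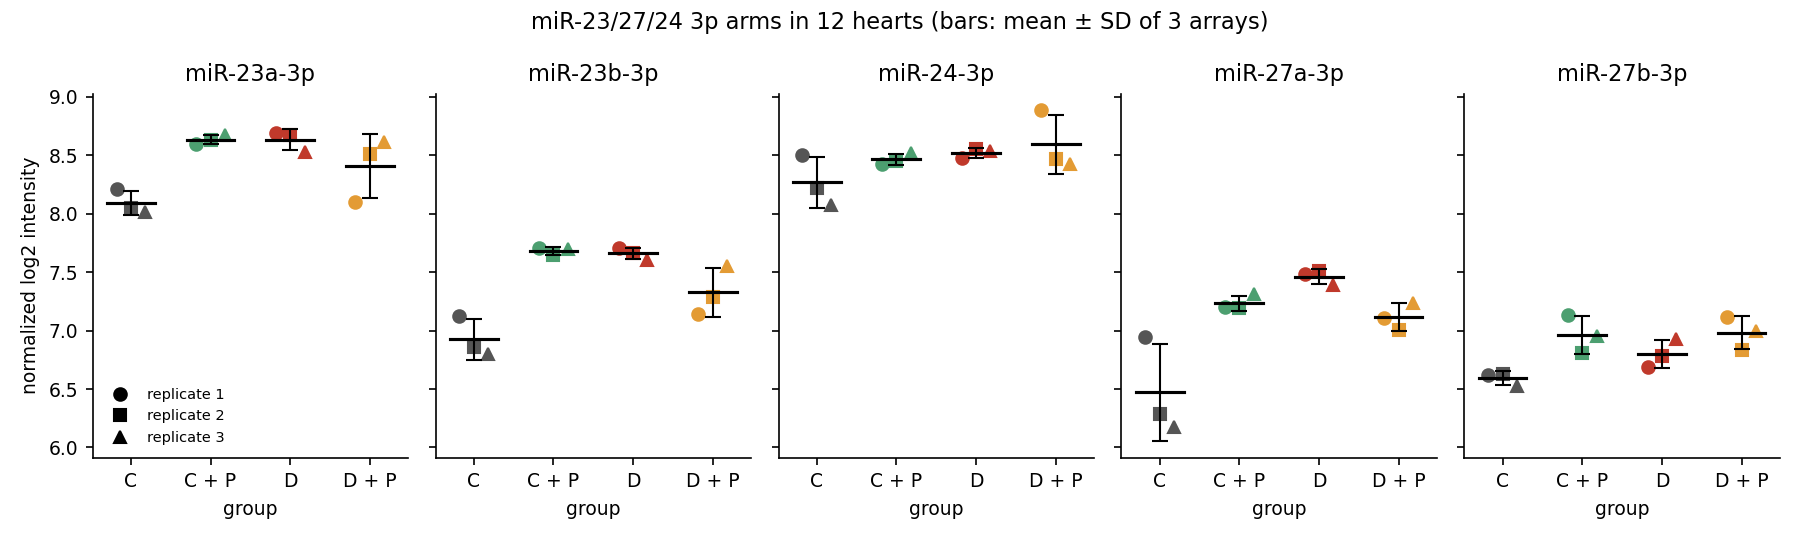
Normalized log2 intensity (y axis) of each of the 5 members in the groups C, C + P, D and D + P (x axis), 1 point per array with a marker shape per replicate number and bars for mean ± SD of 3 arrays. MiR-23a-3p, miR-23b-3p and miR-27a-3p had C well below D and C + P, whereas miR-24-3p had overlapping groups and miR-27b-3p a small step from C.

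In diabetic against control hearts without pargyline (D against C), miR-27a-3p, miR-23b-3p and miR-23a-3p were higher in D, and the other members, miR-24-3p and miR-27b-3p, did not pass the test. MiR-27a-3p rose from 6.47 ± 0.42 (SD, n = 3) to 7.46 ± 0.06, which is 1.99-fold (log2 change 0.99, standard error 0.18, limma adjusted p = 0.0031). MiR-23b-3p, of the other cluster, rose from 6.93 ± 0.18 to 7.66 ± 0.05, or 1.66-fold (log2 change 0.73, standard error 0.14, limma adjusted p = 0.0031). MiR-23a-3p rose from 8.09 ± 0.10 to 8.63 ± 0.09, or 1.45-fold (log2 change 0.54, standard error 0.14, limma adjusted p = 0.011). These 3 stood at ranks 11, 17 and 27 of the 128 miRNAs when ordered from the highest change.

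For miR-24-3p, the change in D against C was 0.25 (8.27 ± 0.22 to 8.52 ± 0.04, 95% interval -0.08 to 0.58, limma adjusted p = 0.17). For miR-27b-3p it was 0.21 (6.59 ± 0.06 to 6.80 ± 0.12, 95% interval -0.08 to 0.50, limma adjusted p = 0.18), although its D arrays all lay above its C arrays. The intervals of both leave room for a rise. Thus 3 of 5 members passed, all higher in D, and so did 50% of all miRNAs tested in either direction and 24.2% in the higher direction. The D arrays lay above the C arrays without overlap for 4 of 5 members, against 35.2% of all miRNAs. The median change of the 5 members was 0.54, and that of all 128 miRNAs was 0.02.

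The members that passed were thus 2 of cluster a and 1 of cluster b, and one of those that did not pass, miR-24-3p, is made by both. The direction was higher in D for all 5 members under every setting run. With the mean signal of the array's control features as a covariate, however, 0 members passed, and 1 of the 128 miRNAs did. When all 1881 miRNAs were kept, 0 members passed as well (5 of all miRNAs did), with log2 changes of 0.60 for miR-23a-3p, 0.72 for miR-23b-3p and 0.97 for miR-27a-3p.

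**Figure D2:**
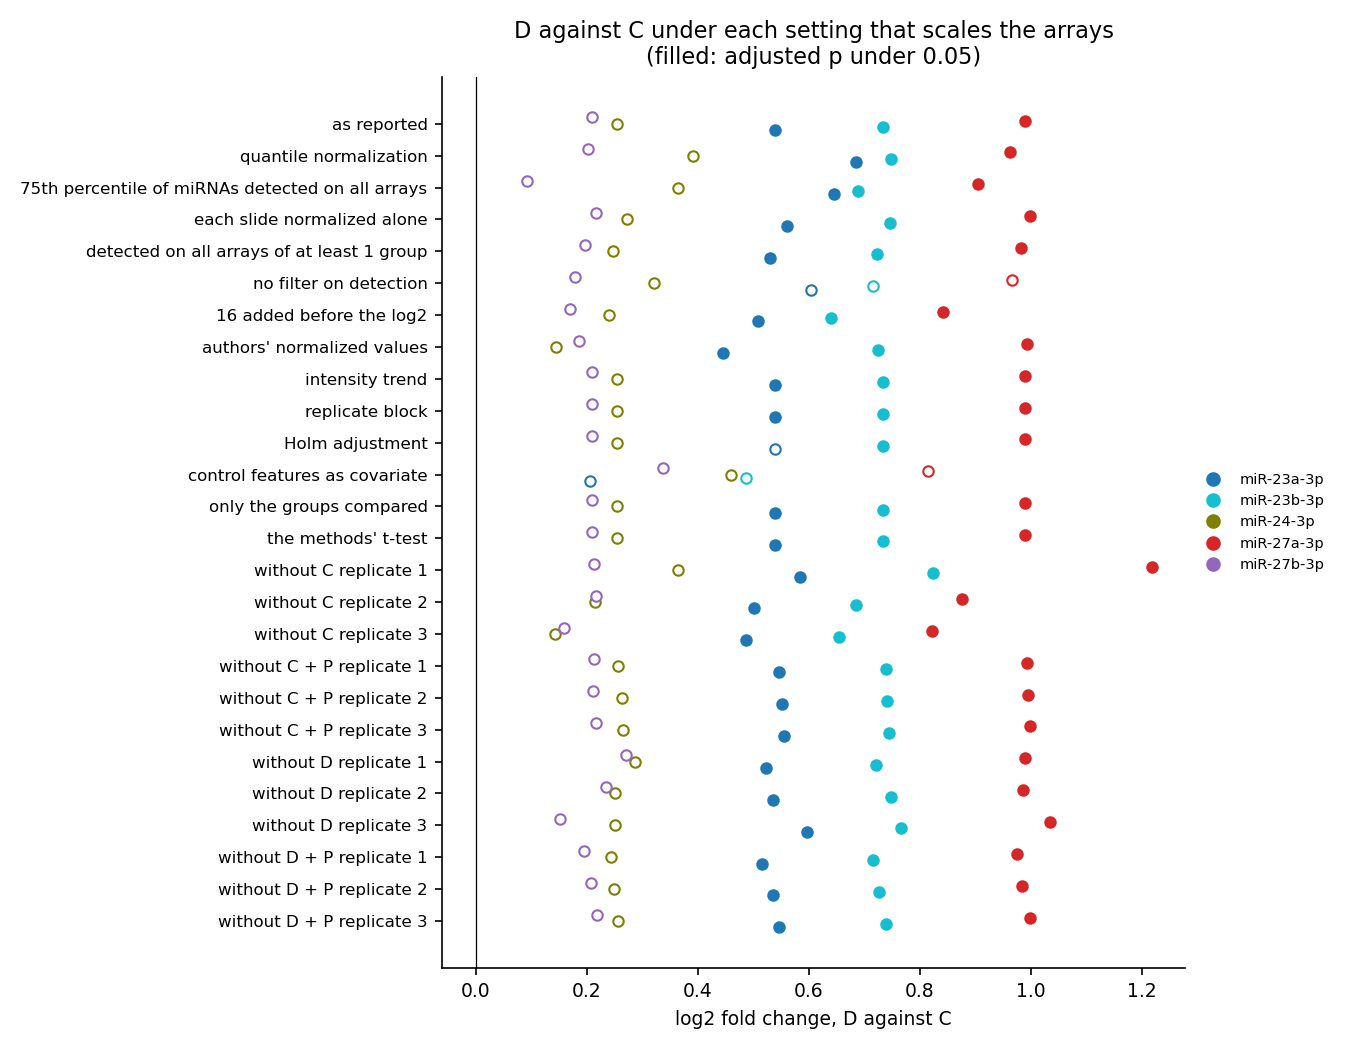
Log2 fold change in D against C (x axis) of each member under each setting that scales the arrays and with each array left out (y axis), filled where the adjusted p was under 0.05. The order of the members, with miR-27a-3p highest and miR-24-3p and miR-27b-3p lowest, held except with control features as a covariate, where miR-23a-3p was the lowest at 0.21 and no point is filled, as without the filter on detection.

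Pargyline in non-diabetic hearts (C + P against C) came with higher values of the same trio and of miR-27b-3p. MiR-23b-3p reached 7.68 ± 0.04 in C + P (1.69-fold above C, log2 change 0.76, limma adjusted p = 0.0055). MiR-27a-3p reached 7.23 ± 0.07 (1.70-fold, log2 change 0.76, limma adjusted p = 0.017), and miR-23a-3p 8.63 ± 0.04 (1.45-fold, log2 change 0.54, limma adjusted p = 0.026). MiR-27b-3p was 1.29-fold higher at 6.96 ± 0.16 (log2 change 0.37, limma adjusted p = 0.043). MiR-24-3p had a log2 change of 0.20 (limma adjusted p = 0.29). Thus 4 of 5 members passed, all of them higher, against 36.7% of all miRNAs in either direction and 18% in the higher direction, and 4 of 5 lay above C without overlap, against 37.5% of all miRNAs.

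This comparison shares its C arrays with D against C, and it runs across slides. It was also less firm, since 1 member in place of 4 passed without C replicate 2, without C replicate 3, without C + P replicate 2 and without C + P replicate 3. In those fits 2.34%, 3.12%, 3.12% and 2.34% of all miRNAs passed, in that order, against 36.7% with all arrays. MiR-23b-3p passed with each of the 12 arrays left out, its highest limma adjusted p being 0.048. With the control features as a covariate, 0 members passed, and 1.56% of all miRNAs did.

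In diabetic hearts with against without pargyline (D + P against D), 0 of 5 members passed, while 53.9% of all miRNAs did. The D + P means of miR-23a-3p, miR-23b-3p and miR-27a-3p lay between those of C and D, and the D + P means of miR-24-3p and miR-27b-3p were the highest of the 4 groups. MiR-27a-3p was at 7.12 ± 0.12 in D + P (log2 change -0.34, 95% interval -0.73 to 0.05, limma adjusted p = 0.12). MiR-23b-3p was at 7.33 ± 0.21 (log2 change -0.33, 95% interval -0.63 to -0.04, limma adjusted p = 0.057). MiR-23a-3p was at 8.41 ± 0.27 (log2 change -0.23, limma adjusted p = 0.18). MiR-24-3p at 8.60 ± 0.25 and miR-27b-3p at 6.98 ± 0.14 had log2 changes of 0.07 and 0.18 (limma adjusted p = 0.65 and 0.22). At an unadjusted p under 0.05, 1 member passed limma. The share of all miRNAs at that level was not counted, but it cannot be below the 53.9% that passed after adjustment. By the methods' t-test 0 members passed after adjustment, as did 0 of all 128 miRNAs.

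The D + P arrays lay below the D arrays without overlap for 2 of 5 members, miR-27a-3p and miR-23b-3p, against 30.5% of all miRNAs. For miR-27a-3p the nearest arrays were D + P replicate 3 at 7.24 and D replicate 3 at 7.39. Without D + P replicate 1, the array that stood apart, the log2 change of miR-23a-3p was -0.06 in place of -0.23, that of miR-24-3p turned to -0.07, and that of miR-27a-3p was -0.33. When each slide was normalized alone, miR-23a-3p, miR-23b-3p and miR-27a-3p had values of 0.21, 0.11 and 0.13, beside a median of 0.47 over all 128 miRNAs.

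Treated diabetic hearts were also set against untreated controls (D + P against C). Here 0 of 5 members passed and 1.56% of all miRNAs did. At an unadjusted p under 0.05 in limma 4 of 5 members passed. The share of all miRNAs at that level was not counted, so that count has no background and cannot be read as particular to the members. By the methods' t-test 0 members and 0 of all 128 miRNAs passed after adjustment. All 5 were nominally higher in D + P, miR-27a-3p with a log2 change of 0.65 (limma adjusted p = 0.11), miR-23b-3p with 0.40 (limma adjusted p = 0.16) and miR-27b-3p with 0.39 (limma adjusted p = 0.16). For these 3 the D + P arrays lay above the C arrays without overlap, as for 7.03% of all miRNAs. MiR-24-3p had 0.33 and miR-23a-3p 0.31 (limma adjusted p = 0.27 for both). Without D + P replicate 1, 3 members passed, miR-23a-3p at 0.46, miR-23b-3p at 0.49 and miR-27a-3p at 0.64. In that fit 25% of all miRNAs passed as well.

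Diabetes under pargyline was read within slide 2 (D + P against C + P). There, 0 of 5 members passed, against 13.3% of all miRNAs. At an unadjusted p under 0.05 in limma 1 of 5 passed. The share of all miRNAs at that level was not counted, but it cannot be below the 13.3% that passed after adjustment. By the methods' t-test 0 members and 0 of all 128 miRNAs passed after adjustment. MiR-23b-3p had its D + P arrays below its C + P arrays without overlap (log2 change -0.36, limma adjusted p = 0.075), and it was the 1 such member of 5, against 21.9% of all miRNAs. The log2 changes of the others were -0.23 for miR-23a-3p, -0.12 for miR-27a-3p, 0.13 for miR-24-3p and 0.02 for miR-27b-3p (limma adjusted p from 0.23 to 0.89).

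The interaction asks whether the change with pargyline differed between diabetic and non-diabetic hearts, and additive effects of slide and row cancel in it. It passed for miR-27a-3p (difference of log2 changes -1.11, standard error 0.25, limma adjusted p = 0.0035), for miR-23b-3p (-1.09, standard error 0.19, limma adjusted p = 0.0026) and for miR-23a-3p (-0.77, standard error 0.20, limma adjusted p = 0.0066). For each of these, the group means of D and C + P were above that of C, while that of D + P was below both. MiR-24-3p had -0.12 (95% interval -0.59 to 0.34, limma adjusted p = 0.60) and miR-27b-3p -0.19 (95% interval -0.59 to 0.22, limma adjusted p = 0.38).

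Among all miRNAs the interaction was widespread. It passed for 70.3% of them in either direction and for 35.2% in the lower direction, so that 3 of 5 members is a share near the background. The median of the members was -0.77, against -0.08 over all 128. The 3 members passed with each array left out, where 59.4 to 75% of all miRNAs did. With the control features as a covariate 0 members passed, and so did 0 of all miRNAs. When all 1881 miRNAs were kept, 0 members and 0.106% of all miRNAs passed.

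**Figure D3:**
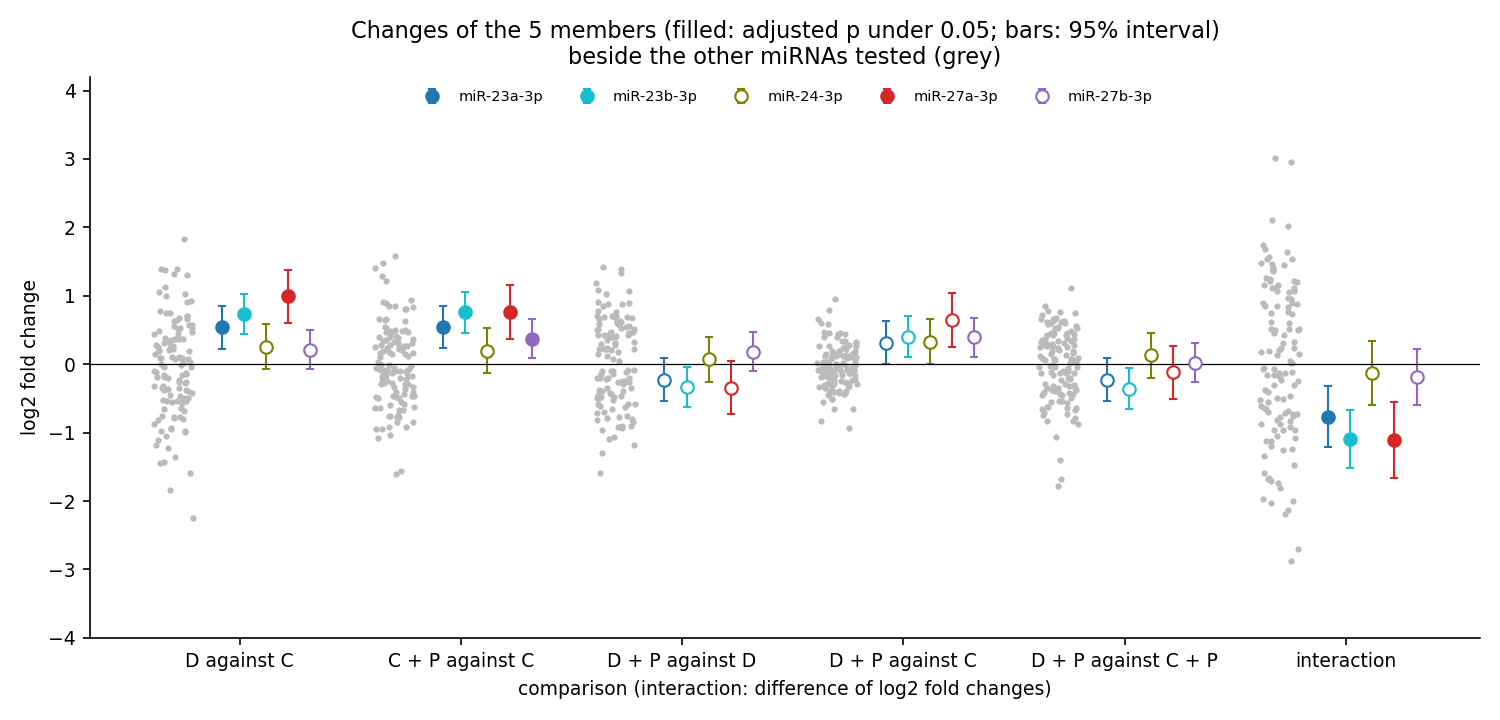
Log2 fold change (y axis) of the 5 members in each comparison (x axis; for the interaction, the difference of log2 fold changes), with bars for the 95% interval and filled points for an adjusted p under 0.05, beside the other miRNAs tested in grey. MiR-23a-3p, miR-23b-3p and miR-27a-3p lie apart from miR-24-3p and miR-27b-3p in D against C and in the interaction, and all 5 lie inside the spread of the other miRNAs.

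To compare the clusters without any normalization, log2 ratios of scanner signals were formed within each array, since a scale factor of the array cancels in them. A ratio of different probes has no meaning as a level, and its differences between groups are what was compared. On the scanner scale, the ratio of the miR-23 pair varied little. MiR-23b-3p over miR-23a-3p was -1.07 ± 0.05 in C, -1.01 ± 0.04 in C + P, -1.03 ± 0.08 in D and -1.004 ± 0.144 in D + P (SD, n = 3), and it stayed between -1.13 and -0.84 on all 12 arrays. The differences with diabetes (0.02), with pargyline (0.05) and for their interaction (-0.04) did not pass the exact permutation test over 400 arrangements within strata (p = 0.66, 0.355 and 0.70). This depended on the scale, since the interaction of the same ratio was -0.32 after cyclic loess (exact permutation p = 0.015, adjusted p = 0.075) and -0.63 in the authors' normalized values (exact permutation p = 0.015, adjusted p = 0.060). For an interaction, here and below, pargyline labels were permuted within each diabetes state. Its p is thus exact only for no effect of pargyline or slide in either state.

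The ratio of the miR-27 pair varied more on this scale. MiR-27b-3p over miR-27a-3p was -0.31, 0.36 and 0.35 in C, -0.82, -0.75 and -0.47 in D, -0.07, -0.38 and -0.35 in C + P and 0.05, -0.16 and -0.25 in D + P. The D arrays were the lowest and overlapped with none of the other groups. The group means were 0.13 ± 0.39 in C, -0.68 ± 0.19 in D, -0.27 ± 0.17 in C + P and -0.12 ± 0.15 in D + P. D was 0.81 below C (difference -0.81), and D + P was 0.56 above D, each with an exact permutation p of 0.1, the smallest that 3 against 3 arrays allow. The interaction was 0.96 (exact permutation p = 0.015, adjusted p = 0.10 over 15 tests), so it failed the adjustment. With single arrays left out, it passed only without C replicate 1, the C array that was closest to the others (1.18, exact permutation adjusted p = 0.037). Without that array, 3 other ratios described next also passed at the same adjusted p, which were miR-23a-3p over miR-27a-3p for diabetes (-0.34) and the interactions of miR-24-3p over miR-27a-3p (0.74) and of cluster b over cluster a (0.56).

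Within cluster a, both mates were set against miR-27a-3p. MiR-24-3p over miR-27a-3p was 1.69 ± 0.19 in C, 1.15 ± 0.04 in D, 1.29 ± 0.02 in C + P and 1.38 ± 0.22 in D + P. D was below C without overlap (difference -0.54), and so was C + P (-0.40), each at the smallest exact permutation p of 0.1. Its interaction was 0.63 (exact permutation p = 0.010, adjusted p = 0.10), and it was 0.98 after cyclic loess and 1.42 in the authors' values. MiR-23a-3p over miR-27a-3p was 1.52 ± 0.30 in C, 1.26 ± 0.08 in D, 1.45 ± 0.04 in C + P and 1.19 ± 0.32 in D + P, and D and C overlapped (difference -0.26, exact permutation p = 0.30). Here diabetes over both strata gave -0.26 (exact permutation p = 0.075, adjusted p = 0.28).

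Taken as a whole, cluster b over cluster a (the mean of miR-23b-3p and miR-27b-3p over the mean of miR-23a-3p and miR-27a-3p) was lower in D than in C by 0.38 (difference -0.38, exact permutation p = 0.1, no overlap), with an interaction of 0.46 (exact permutation p = 0.020, adjusted p = 0.10). That interaction was 0.30 after cyclic loess and 0.13 in the authors' values. On the scanner scale the difference between D and C lay in the miR-27 pair, as the ratio of the miR-23 pair was 0.04 higher in D than in C. With all 12 arrays, none of the 15 tests over diabetes, pargyline and interaction passed after adjustment, and 5 comparisons of 3 against 3 were also run for each ratio.

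**Figure D4:**
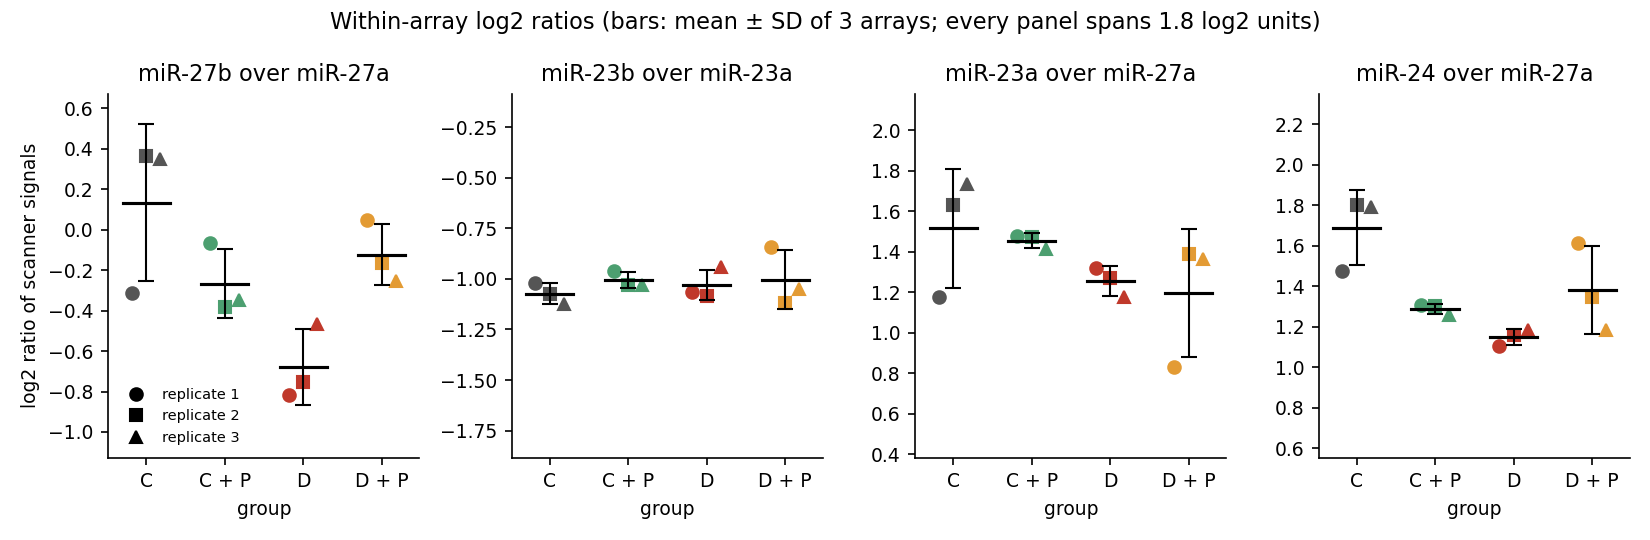
Within-array log2 ratio of scanner signals (y axis) for pairs of members in each group (x axis), 1 point per array and bars for mean ± SD of 3 arrays, with the same span in every panel. The ratio of miR-23b to miR-23a is nearly flat over the 12 arrays, and that of miR-27b to miR-27a is lowest in D.

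Over the 12 arrays, the mates were also correlated with miR-27a-3p on the normalized log2 scale. MiR-23b-3p, of the other cluster, had the highest Pearson r of the mates and miR-23a-3p the highest Spearman rho, and by quantile normalization miR-23a-3p also had the higher r (0.92, against 0.85). MiR-23b-3p had r = 0.91 (permutation p = 0.00016, adjusted p = 0.00064 over 4 mates) and rho = 0.81 (permutation p = 0.0024, adjusted p = 0.0048). MiR-23a-3p had r = 0.84 (permutation p = 0.00054, adjusted p = 0.0011) and rho = 0.88 (permutation p = 0.00042, adjusted p = 0.0017). MiR-24-3p had r = 0.68 (permutation p = 0.018, adjusted p = 0.024) and rho = 0.55 (permutation p = 0.066, adjusted p = 0.088). MiR-27b-3p had r = 0.55 (permutation p = 0.060, adjusted p = 0.060) and rho = 0.38 (permutation p = 0.23, adjusted p = 0.23). The permutations shuffled arrays across the groups, so differences between groups enter these p-values. As deviations from group means, r was 0.76 for miR-23b-3p, 0.43 for miR-23a-3p, 0.58 for miR-24-3p and 0.14 for miR-27b-3p. These values were not tested.

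C replicates 2 and 3 were the arrays farthest from the median of miR-27a-3p. Without them r was 0.79 for miR-23b-3p (permutation p = 0.0073, adjusted p = 0.029) and 0.68 for miR-23a-3p (permutation p = 0.031, adjusted p = 0.062). It was -0.10 for miR-24-3p and -0.04 for miR-27b-3p (permutation p = 0.77 and 0.91), so the relation of these rests on those arrays. Within slide 1, r was 0.98 for miR-23b-3p, 0.96 for miR-23a-3p, 0.93 for miR-24-3p and 0.75 for miR-27b-3p (6 arrays, exact permutation p = 0.0056, 0.0056, 0.036 and 0.056). Within slide 2 it was 0.78, 0.53, -0.26 and 0.19 in the same order (exact permutation p = 0.11, 0.34, 0.51 and 0.73), so no relation passed there. Between the mates themselves, miR-23a-3p and miR-23b-3p had r = 0.96, and miR-24-3p and miR-27b-3p r = 0.65.

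**Figure D5:**
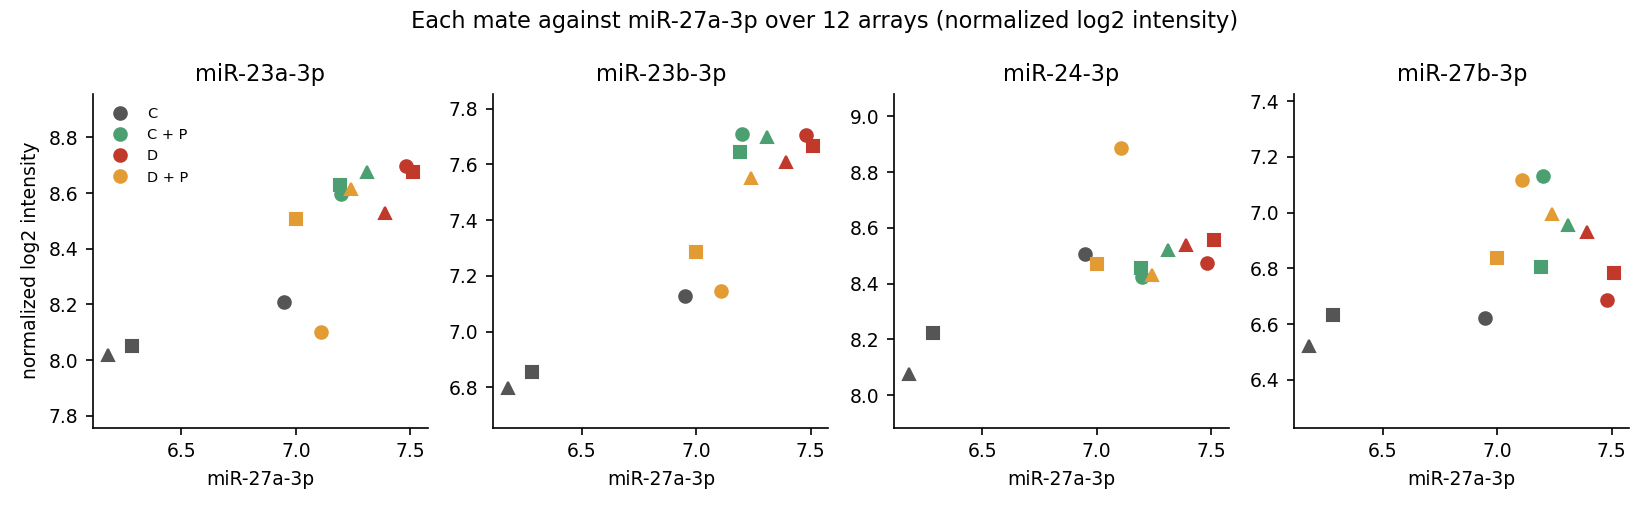
Normalized log2 intensity of each mate (y axis) against that of miR-27a-3p (x axis), 1 point per array, with colours for the groups and circles, squares and triangles for replicates 1, 2 and 3. MiR-23a-3p and miR-23b-3p rise from the C arrays to the C + P and D arrays, among which they are nearly level. MiR-24-3p and miR-27b-3p have C replicates 2 and 3 at the lower left and r of -0.10 and -0.04 among the other 10 arrays.

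The 127 other miRNAs tested had a median r of -0.05 with miR-27a-3p, 38 of them above 0.5 and 41 below -0.5, so high values were common on these arrays. MiR-23b-3p had the highest r of all, but not the highest rho (0.95, of miR-30e-3p). Outside the members, the highest r were those of miR-22-5p (r = 0.87), miR-30e-3p (0.85), miR-199a-5p (0.81), miR-1a-3p (0.79) and miR-149-5p (0.78). All of these were higher in D than in C past the limma threshold, with log2 changes of 1.39, 0.37, 0.65, 1.32 and 0.53. Since they were picked by r over the same arrays, that direction follows largely from the choice and is no separate result. In D + P against D, where miR-27a-3p did not pass, miR-22-5p fell by 0.44, miR-1a-3p by 0.71 and miR-149-5p by 0.49 past the limma threshold. MiR-30e-3p and miR-199a-5p had log2 changes of -0.22 and -0.25 there and did not pass. Of all miRNAs 53.9% passed in that comparison. The choice by r took in its arrays as well, so these falls are no separate result either. The most opposed were miR-7005-5p (r = -0.90), miR-5622-3p (-0.82) and miR-6937-5p (-0.81), which fell in D against C by 2.24, 1.84 and 1.36 on the log2 scale. Their direction too follows largely from the choice by r.

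The 5p arms of the same hairpins, the strands that are usually degraded, were mostly not detected. MiR-23a-5p, miR-23b-5p, miR-27a-5p and miR-27b-5p were detected on 0 arrays, and miR-24-1-5p, of cluster b, on 1 array, C + P replicate 3. MiR-24-2-5p, of cluster a (chr8:84208839-84208860), was the one arm that could be followed, and it is shown since it comes from Mir24-2 alone, whereas miR-24-3p comes from both loci.
miR-24-2-5p: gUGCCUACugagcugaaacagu
It was detected on 11 arrays, with signals of 7.90 and 4.53 in C replicates 1 and 3, 9.96, 9.04 and 9.01 in D, 13.5, 11.5 and 19.4 in C + P and 12.0, 15.7 and 17.0 in D + P. C replicate 2 was the array without detection. A wider fit took in 209 miRNAs, each detected throughout 1 group or more, and C replicate 2 entered it at the lowest signal it had detected. There, miR-24-2-5p had a log2 change of 0.37 in D against C and 0.37 in C + P against C (limma adjusted p = 0.37 and 0.43) and passed in no comparison.

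Among other miRNAs with a member's seed, miR-5124b, miR-6369, miR-6410 and miR-6413 share GGCUCAG with miR-24-3p and were detected on 0 arrays. In the RefSeq table, which is not complete, UCACAGU was the seed of miR-27a-3p and miR-27b-3p and of no other miRNA on the array.

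Whole heart holds several cell types, and fewer cells of a type and less RNA per cell cannot be told apart in it. Of the fibroblast miRNAs, 3 of 4 were detected on all arrays, with a median log2 change of 0.65 in D against C and 0.51 in C + P against C (2 passed in each, all higher) and -0.43 in D + P against D (2 passed, both lower). Their summed signal ran from 90.5 to 110 in C, 169 to 232 in D, 238 to 429 in C + P and 73.7 to 218 in D + P. Such sums, here and below, are not normalized, so the difference in brightness between arrays stays in them. In these comparisons the median of this list had the direction of miR-23a-3p, miR-23b-3p and miR-27a-3p. In D + P against C it was 0.11, whereas those 3 members had 0.31 to 0.65. With miR-27a-3p, r was 0.81 for miR-199a-5p, 0.65 for miR-199a-3p and 0.25 for miR-21a-5p. The part of this list in the change of the members was not tested.

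The leukocyte miRNAs (2 of 5 on all arrays) also moved that way, with medians of 0.80, 1.15 and -1.19 in the same comparisons, at summed signals of 12.2 to 25.8 in C, 38.4 to 60.2 in D, 78.4 to 147 in C + P and 10.4 to 60.8 in D + P, and their part was not tested. The smooth muscle miRNAs (2 of 2 on all arrays) had medians of 0.42, 0.45 and 0.14, with summed signals of 36.8 to 51.1 in C, 82.0 to 105 in D, 109 to 192 in C + P and 62.1 to 130 in D + P. Of the endothelial list, 1 of 4 was on all arrays, miR-126a-3p, with log2 changes of 0.20, 0.32 and -0.20, none of which passed. The median of the cardiomyocyte miRNAs was 0.02, -0.09 and -0.26, but they did not move alike. In D against C 1 passed higher and 1 lower, in C + P against C 1 higher, and in D + P against D 2 lower. Among them miR-1a-3p had log2 changes of 1.32, 1.48 and -0.71. The median of the erythroid miRNAs (3 of 3 on all arrays) was -0.21, -0.49 and 0.12, with 1 passing lower, 1 lower and 1 higher. The summed signal of every list was higher in D and in C + P than in C. For the cardiomyocyte list it ran from 3555 to 4403 in C and from 7772 to 11917 in D.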

How the data were processed

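Total RNA of 12 hearts was labelled with Cy3 and hybridized to Agilent mouse miRNA arrays based on miRBase 21, 1 array per mouse. The authors deposited, per array, a gene-level total signal (a linear intensity, summed over probes and corrected for background by the scanner software), its error and whether it was detected; 0.1 stands for a miRNA that was not. They also deposited a normalized intensity for 209 miRNAs, filtered and then normalized by cyclic loess according to the methods, and used here as an alternative; its settings are not given in the sources used here. The amount of RNA labelled is 200 ng in the labels and 100 ng in the methods. The extraction text of the labels names macrophages, while the tissue label and the methods give heart.

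Signals of the 128 miRNAs detected on all 12 arrays were taken to log2 without an added constant and normalized by cyclic loess (limma 3.58.1, R 4.3.3, span 0.7, 3 iterations). limma's lmFit and eBayes then estimated the 4 group means from all 12 arrays together, with Benjamini-Hochberg adjustment over the 128 miRNAs and a threshold of 0.05. Intervals are at 95%. Within-array ratios were tested by exact two-sided permutation of labels within strata, where the smallest p is 0.005. For their interaction, pargyline labels were permuted within each diabetes state. Correlations were tested by two-sided permutation of the arrays without regard to group. The fit was tested on simulated data. The members, the lists of cell type miRNAs and the rule for other miRNAs named (passenger arms, shared seeds, and the 5 highest and 3 lowest correlations with miR-27a-3p) were chosen with earlier results of these data known. The number of arrays limits the precision. Alternatives were other normalizations, filters, adjustments, variance models, the methods' t-test, control features as a covariate, the replicate number as a block and each array left out. The t-test was adjusted by Benjamini-Hochberg here, whereas the methods name an adjusted Bonferroni correction. No pair of arrays held identical values.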

Additional observations from a re-analysis of the deposited data

Results flagged for a closer look

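The change with pargyline differed between diabetic and non-diabetic hearts for 3 members, by the limma test of the interaction. For miR-27a-3p the log2 change with pargyline was 0.76 in non-diabetic and -0.34 in diabetic hearts, a difference of -1.11 (limma adjusted p = 0.0035). For miR-23b-3p it was 0.76 and -0.33, a difference of -1.09 (limma adjusted p = 0.0026). For miR-23a-3p it was 0.54 and -0.23, a difference of -0.77 (limma adjusted p = 0.0066). The same test passed for 70.3% of all miRNAs. Without normalization the median difference over all 128 miRNAs was -1.17, and it was -0.08 after normalization.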

How the results depend on the processing

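The direction of all 5 members in D against C held under every setting run. The number that passed there, 3, was 5 when arrays were scaled to the 75th percentile of all miRNAs or not normalized, 2 with Holm adjustment, which lost miR-23a-3p, and 0 without a filter on detection or with control features as a covariate. Of all miRNAs, 57.8%, 46.9%, 10.2%, 0.266% and 0.781% passed in these settings, in that order. In C + P against C, 4 became 0 without a filter or with the covariate, 1 with Holm adjustment, and 1 to 4 with single arrays left out. Of all miRNAs, 0.213%, 1.56%, 2.34% and 2.34 to 61.7% passed there, in that order. The number of members also became 5, with miR-24-3p, by that scaling, without normalization or with slides normalized alone (83.6%, 75% and 60.9% of all miRNAs). The number became 3 by the methods' t-test (without miR-27a-3p), in the authors' values (without miR-23a-3p) and by quantile, by the percentile of detected miRNAs or by the wider filter (without miR-27b-3p). Of all miRNAs, 52.3%, 22.7%, 25%, 24.2% and 18.2% passed there, in that order. For the interaction, 3 became 5 with that scaling or without normalization, 0 without a filter or with the covariate, and 1 with Holm adjustment. Of all miRNAs, 57%, 54.7%, 0.106%, 0% and 12.5% passed there, in that order. In D + P against D, 0 became 2 with each slide normalized alone, 1 with 16 added before the log2 or with an intensity trend, and 0 to 1 with arrays left out (miR-27a-3p without C replicate 1, miR-23b-3p without D + P replicate 3). Of all miRNAs, 56.2%, 52.3%, 53.9% and 10.2 to 69.5% passed there, in that order. In D + P against C, 0 became 5 with that scaling or with slides normalized alone, 3 without normalization and 0 to 3 with arrays left out (1 without C replicate 1, 3 without D + P replicate 1). Of all miRNAs, 45.3%, 57%, 14.1% and 0 to 25% passed there, in that order. In D + P against C + P, 0 became 1 with 16 added and 0 to 1 with arrays left out (1 without D + P replicate 3). Of all miRNAs, 25.8% and 0.781 to 57% passed there, in that order. With no normalization or that scaling, the shift common to all miRNAs stays in the values; the cause of the other differences was not tested.

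Directions turned in D + P against D for miR-24-3p (-0.10 by quantile, -0.24 by 75th percentile of all miRNAs, -0.25 without normalization, -0.041 with the covariate, -0.068 to 0.16 with arrays left out) and, with each slide normalized alone, for miR-23a-3p (0.21), miR-23b-3p (0.11) and miR-27a-3p (0.13). In D + P against C + P they turned under the same 4 settings for miR-24-3p (-0.090, -0.52, -0.48 and -0.0051; -0.020 to 0.21 with arrays left out) and for miR-27b-3p (-0.47 by percentile, -0.42 without normalization, -0.24 in the authors' values, -0.065 with the covariate, -0.055 to 0.11 with arrays left out). MiR-24-3p had -0.032 in C + P against C and 0.11 for the interaction in the authors' values, and -0.26 to 0.0028 for the interaction with arrays left out. The interaction of miR-27b-3p was 0.0015 with the percentile of detected miRNAs.

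Of the ratios, the interaction of miR-23b over miR-23a moved from -0.04 to -0.32 by loess, -0.16 by quantile and -0.63 in the authors' values, that of miR-24 over miR-27a from 0.63 to 0.98 by loess and 1.42 in the authors' values, and that of cluster b over a from 0.46 to 0.30 by loess and 0.13 in the authors' values. MiR-23b over miR-23a turned for diabetes by quantile (-0.017), in the authors' values (-0.038), with 16 added (-0.0044) and with arrays left out (-0.017 to 0.053), for pargyline by quantile (-0.041), and for the interaction with 16 added (0.073) and with arrays left out (-0.12 to 0.018). MiR-23a over miR-27a turned for pargyline with 16 added (0.0065) and with arrays left out (-0.15 to 0.030), and for the interaction by loess (0.34), by quantile (0.10), in the authors' values (0.75) and with arrays left out (-0.11 to 0.18). MiR-27b over miR-27a ran from -0.033 to 0.14 for pargyline and from 0.84 to 1.18 for the interaction with arrays left out, miR-24 over miR-27a from 0.52 to 0.74 and cluster b over a from 0.37 to 0.56 for the interaction. Cluster b over a for pargyline was -0.0069 by quantile.

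Correlation with miR-27a-3p fell for miR-23a-3p without the 2 farthest arrays (0.68), within slide 2 (0.53) and as deviations from group means (0.43), and for miR-23b-3p within slide 2 (0.78). For miR-24-3p it was 0.13 in the authors' values, -0.10 without those arrays, -0.26 within slide 2 and 0.45 to 0.91 with arrays left out (0.91 without D + P replicate 1). For miR-27b-3p it was 0.62 in the authors' values, -0.040 without those arrays, 0.14 as deviations from group means and 0.34 to 0.67 with arrays left out. Without normalization, r was 0.96 for miR-23a-3p, 0.98 for miR-23b-3p, 0.99 for miR-24-3p and 0.93 for miR-27b-3p. There, the shift common to all miRNAs stays in the values.

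Arrays of the same number did not deviate together across groups (mean r -0.07, against 0.04 for different numbers). With the replicate number as a block, miR-27b-3p no longer passed in C + P against C (limma adjusted p = 0.066), which left 3 members there, beside 27.3% of all miRNAs. The block changed no other call of a member. Over all 128 miRNAs it lowered the count that passed in D + P against C + P from 17 to 8.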
